A study of Mus musculus with 32 samples.

Results

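The 31 genes described here encode the soluble hydrolases of the lysosome and the proteins they work with, in microglia sorted from mouse cortex after a stab wound. They were found by gene symbol in the authors' day 1 comparison table and joined by identifier to the count table, which gave 31 of 55385 genes. All 31 passed the filter on low counts. The genes fall into 6 roles: 8 sphingolipid hydrolases, 3 cofactors and granulin, 7 glycosaminoglycan hydrolases, 5 glycoprotein and glycogen hydrolases, 4 sterol and phospholipid proteins, and 4 peptidases, thioesterase and Cln3.

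Lysosomal hydrolases are made in the endoplasmic reticulum, tagged with mannose 6-phosphate in the Golgi and carried to an acidic compartment, where they take apart lipids, glycans and proteins. Microglia, the resident macrophages of the brain, send what they engulf to this compartment, and inherited loss of most of these enzymes causes a lysosomal storage disease. Some lysosomal genes carry a short E-box element near their start that can be bound by the transcription factor TFEB and its relatives.

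Injured samples were EYFP+ microglia from the site of a cortical stab wound, and non-injured samples were EYFP+ microglia from the matching site of the other hemisphere, in female and male mice at days 1, 4, 7 and 14. All groups share the same background of adult C57BL/6 mice heterozygous for Cx3cr1CreER, a tamoxifen-dependent recombinase driven by the fractalkine receptor gene, given tamoxifen at 8 to 10 weeks of age (a dose of 180 mg/kg dissolved in corn oil at 30 mg/ml, injected into the peritoneum on 5 consecutive days) to switch on EYFP before the wound. Cx3cr1 is also active in blood monocytes and border-associated macrophages, so the gate can hold these cells. The RNA was polyadenylated RNA, and in such bulk samples fewer cells of a type and less RNA per cell cannot be told apart. Each combination of day, sex and side was deposited as 2 columns, which the series' design text calls biological replicates. The columns differed by little more than counting noise (median chi-square over genes of 0.475 to 0.639, against 0.455 for counting noise alone), so they were summed and counted as 1 sample, giving 16 libraries in 8 day-by-sex pairs. No label ties a column to an animal, so p-values measure only the spread between these libraries.

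Libraries held 20863982 to 55378788 counts, and the 31 genes together made up 1.68% to 3.04% of the counts of injured libraries and 0.55% to 2.83% of those of non-injured ones. One library stands apart. In the day 4 male non-injured library, mitochondrial transcripts made up 25.7% of counts, neuron markers summed to 2734 CPM and the 31 genes made up 0.55% of counts. CPM here are counts per 1000000 after scaling by trimmed mean of M values (TMM). The day 7 male non-injured library held the most monocyte marker RNA of the non-injured side (261.7 CPM over 10 markers). Both pairs stay in the values below unless stated, and counts without them are given beside the results.

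**Figure D1:**
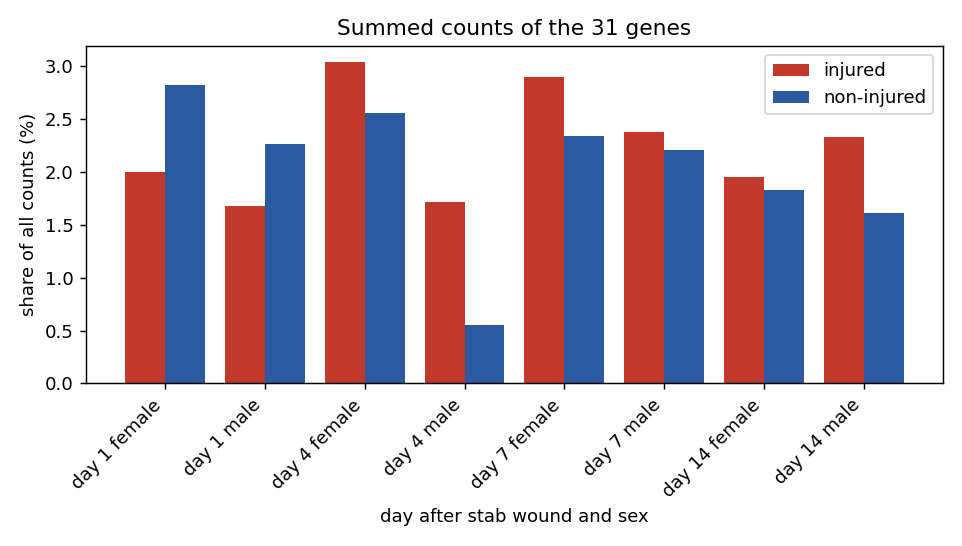
Share of all counts taken by the 31 genes (%), by pair of libraries; red bars are injured and blue bars non-injured libraries. The share was lower at the wound in both day 1 pairs and higher in the other 6, with the lowest bar, 0.55%, in the day 4 male non-injured library.

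With the 4 days averaged and the libraries scaled by TMM, most of these hydrolases and cofactors had more mRNA at the wound. Of the 31 genes, 19 rose and 1 fell at an adjusted p under 0.05 in edgeR's quasi-likelihood test, where 7.76% of the 28597 genes tested rose and 7.96% fell. The genes that rose most were Gla, Galns, Lipa, Gusb, Npc2, Galc, Psap and Grn, and the single gene that fell was Arsb. The median log2 change of the 31 genes was 0.66, beside -0.32 over all genes tested. Many well-expressed genes rose as well: among 5760 protein-coding genes at or above the lowest mean CPM of the 31, 25.3% rose and 7.83% fell, with a median log2 change of 0.29. Dropping a single pair gave 8 rises (day 1 female), 9 (day 7 female), 9 (day 7 male), 12 (day 1 male) or 12 (day 14 male). The count was higher when 1 of the other pairs was dropped, at most 20. Dropping the day 4 and day 7 male pairs together gave 10. The count was 14 with median-ratio scaling, 8 with library size as the only scaling and 6 in limma on log2(TPM + 1). Rises over all genes also moved, from 2219 of 28597 in the main fit. They numbered 749 (day 1 female), 1050 (day 7 female), 1191 (day 7 male), 1138 (day 1 male) or 1931 (day 14 male) without a pair. Without the day 4 female, day 4 male or day 14 female pair, 1875, 2067 or 1891 rose. Between 30848 and 33627 genes were tested in these fits. Without the day 4 and day 7 male pairs 1603 rose. Median-ratio scaling gave 1939, library size alone 1294 and limma 1092. Gla, Gusb, Galns, Lipa, Npc2 and Psap were called in all 17 alternatives run. These fits reuse the libraries of the main fit, and calls in all 17 were not counted over all genes. By CPM, 5 of the 31 genes (Gla, Gusb, Galns, Lipa and Neu1) were higher at the wound in all 8 pairs, as were 5.11% of genes tested. In 0 of the 31 did all 8 injured libraries exceed all 8 non-injured ones, a pattern held by 0.234% of genes tested.

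Markers of other cells moved with the wound. Of 10 monocyte markers 9 rose and 0 fell, and their summed level was 199.4 to 1376 CPM in injured libraries and 19.1 to 261.7 CPM in non-injured ones, higher in 8 of 8 pairs. Of 8 neutrophil markers 6 rose, with sums of 8.44 to 317.4 CPM in injured and 0.0822 to 9.81 CPM in non-injured libraries. Of 7 border-associated macrophage markers 3 rose, with sums of 72.8 to 2820 CPM in injured and 20.1 to 514 CPM in non-injured libraries. Of 9 microglial markers 6 fell and 1 rose, with sums of 5743 to 28140 CPM in injured and 5368 to 43290 CPM in non-injured libraries, and 0 of the 9 were at 0 in any library.

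Of 7 neuron markers 6 fell, with sums of 8.49 to 140.7 CPM in injured and 48.6 to 2734 CPM in non-injured libraries. Markers of T, B and plasma cells (1 of 7 tested rose), astrocytes (1 of 6 fell), oligodendrocytes (2 of 6 fell) and endothelial cells (4 of 7 fell) were also measured. In non-injured libraries the monocyte marker Ly6c2 was at 0 in 2 of 8 and the neutrophil markers Retnlg, Camp and Ngp were at 0 in 4 of 8, and Ly6g was at 0 in 4 of 8 injured libraries. Lysosomal hydrolases are also expressed by monocytes and macrophages. The part of these cells in the changes of the 31 genes was not tested.

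**Figure D2:**
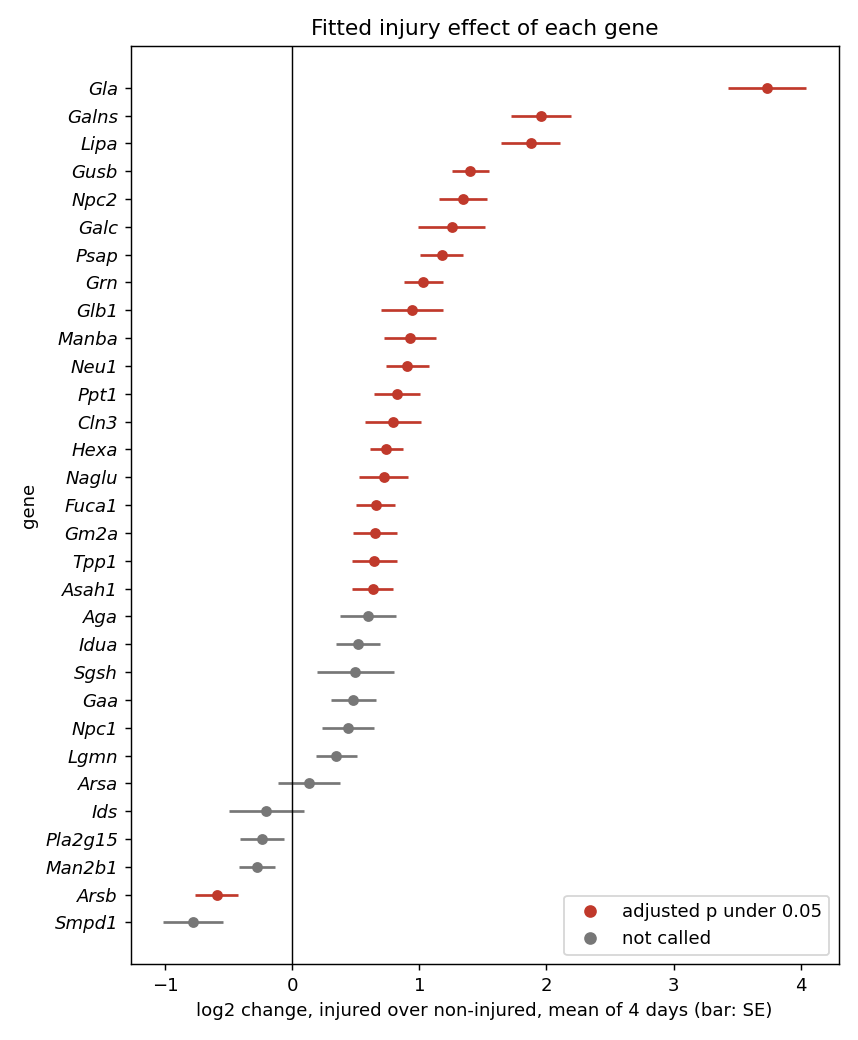
Fitted log2 change, injured over non-injured, for the mean of 4 days (points) with its standard error (bars), 1 row per gene; red marks an adjusted p under 0.05 in edgeR. Gla stands apart at 3.74, 19 genes lie to the right as rises, and Arsb at -0.59 is the 1 gene called lower.

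The scaling of the libraries moved these values. The median log2 change of all genes tested was -0.32 with TMM, -0.44 with median-ratio factors and -0.65 with library size alone. The median of the 31 genes was 0.66, 0.51 and 0.29 under these scalings. The share of all called genes that rose was 49.4%, 40.7% and 24.5%. In 25 of 31 genes the sign of the change was the same in all 17 alternatives run, which was not counted over all genes. The exceptions among the 31 were Gaa, Ids, Idua, Arsa, Npc1 and Lgmn, none of which was called.

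**Figure D3:**
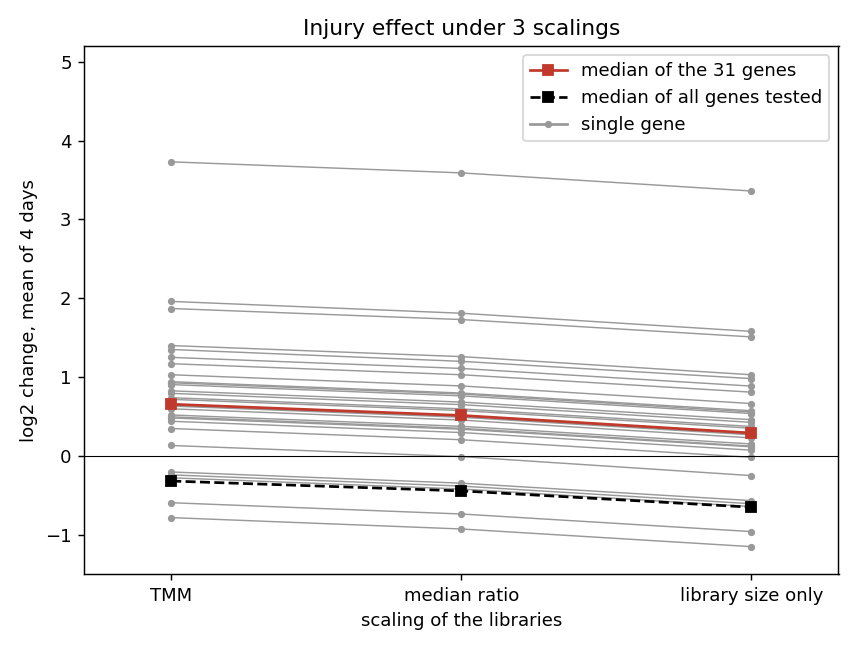
Fitted log2 change for the mean of 4 days (vertical axis) under 3 scalings of the libraries; grey lines are the 31 genes, red their median and the dashed black line the median of all genes tested. The median of the 31 genes stays above that of all genes tested under each scaling (0.66 against -0.32, 0.51 against -0.44 and 0.29 against -0.65).

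In this and the following paragraphs, 4 values of a group are listed in the order of days 1, 4, 7 and 14. Among the sphingolipid hydrolases, 6 of 8 rose over the mean of 4 days, 0 fell and the median log2 change was 0.82. Gla, the alpha-galactosidase that trims terminal galactose from globotriaosylceramide, stood at 161, 162, 149 and 95.2 CPM in injured female libraries and 45.5, 160, 236 and 47.1 CPM in injured male ones, against 9.35, 6.78, 6.47 and 10.9 CPM in non-injured female libraries and 5.95, 4.07, 52.1 and 4.71 CPM in non-injured male ones. Every injured library exceeded the non-injured library of its pair, and 7 of 8 non-injured libraries lay between 4.07 and 10.9 CPM. The day 7 male non-injured library, at 52.1 CPM, lay above the injured male libraries of days 1 and 14, so the groups overlapped through this library alone. The log2 change was 3.74 (SE 0.31, adjusted p = 0.000221), a fold of 13.3, and between 3.46 and 4.06 when 1 pair at a time was left out.

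Hexa, the alpha subunit of beta-hexosaminidase, which degrades GM2 ganglioside, stood at 628, 3018, 2928 and 862 CPM in injured female libraries and 374, 1282, 1846 and 1170 CPM in injured male ones, against 1184, 1376, 797 and 434 CPM in non-injured female libraries and 815, 530, 652 and 517 CPM in non-injured male ones. Both injured libraries of day 1 lay below their non-injured partners and all 6 later injured libraries lay above theirs, with overlap between the groups. Its log2 change over the mean of 4 days was 0.74 (SE 0.13, adjusted p = 0.00547). It was called in all 8 fits that left out a pair, and in 6 of the other 9 alternatives (largest adjusted p = 0.47).

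The other sphingolipid hydrolases that rose were Galc, which removes galactose from galactosylceramide and psychosine (log2 1.25, SE 0.26, adjusted p = 0.0121), Glb1, the beta-galactosidase of GM1 ganglioside (0.94, SE 0.24, adjusted p = 0.0301), the sialidase Neu1 (0.91, SE 0.17, adjusted p = 0.00703) and the ceramidase Asah1 (0.63, SE 0.16, adjusted p = 0.028). When 1 pair at a time was left out, Neu1 was called in 7 of 8 fits, Galc in 5, and Glb1 and Asah1 in 2 each. Neu1 was higher at the wound in 8 of 8 pairs, Galc and Asah1 in 7 and Glb1 in 6. Galc ranged from 17.0 to 67.7 CPM in injured libraries (median 38.4) and from 7.20 to 26.1 CPM in non-injured libraries (median 14.1). Neu1 ranged from 38.7 to 217 CPM in injured libraries (median 105) and from 17.8 to 96.7 CPM in non-injured ones (median 51.9), and Asah1 from 296 to 1355 CPM in injured libraries (median 715) and from 184 to 1030 CPM in non-injured ones (median 442). Glb1 ranged from 38 to 345 CPM in injured libraries (median 72.6) and from 22.6 to 135 CPM in non-injured ones (median 42.5). Glb1 shares exon sequence with Tmppe on the same strand, so its counts may be split between them. The 2 remaining genes were not called: Arsa, the arylsulfatase that desulfates sulfatide, had a log2 change of 0.13 (SE 0.24, adjusted p = 0.855), and Smpd1, acid sphingomyelinase, one of -0.78 (SE 0.24, adjusted p = 0.0536). Arsa ranged from 1.53 to 75.3 CPM in injured libraries (median 23.6) and from 0.164 to 76.9 CPM in non-injured ones (median 24.5), with 4 counts in its lowest library. The injured library of Smpd1 was the lower one in 6 of 8 pairs, with levels ranging from 3.30 to 105 CPM (median 37.3) in injured libraries and from 24.2 to 107 CPM (median 81.6) in non-injured libraries.

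The promoter of Gla is shown because this gene had the largest change of the 31 and because its upstream sequence holds the core of the TFEB element at 2 places. RefSeq promoters (GRCm38.p6, 250 bases before to 50 after a gene start) were matched by symbol for 27 of the 31 genes. The unmatched genes are Galns, Npc1, Aga and Asah1. The motif searched was CACGTG, an E-box that reads the same on both strands, and it was also searched with T before and A after it, the core of the element described for lysosomal genes. CACGTG was present in 8 of 27 genes (29.6%), against 8.09% of the 27025 genes in the table and 9.18% of its protein-coding genes. The longer form was present in 2 of 27 (7.41%), Gla and Cln3, against 1.12% of all genes in the table. Some genes have several promoters, and a match in any of them counted. In Cln3 and Lgmn the matches lie in the downstream promoter. Their upstream promoters (chr7:126585768-126586067 and chr12:102439679-102439978) hold 0 matches. The 250 bases upstream of the start are given below for Gla and, as contrast, for Gusb and Lipa, which were called in all 17 alternatives run and have no CACGTG there (5′ to 3′ on the gene's strand, CACGTG in capitals).
Gla, chrX:134601006-134601255, minus strand: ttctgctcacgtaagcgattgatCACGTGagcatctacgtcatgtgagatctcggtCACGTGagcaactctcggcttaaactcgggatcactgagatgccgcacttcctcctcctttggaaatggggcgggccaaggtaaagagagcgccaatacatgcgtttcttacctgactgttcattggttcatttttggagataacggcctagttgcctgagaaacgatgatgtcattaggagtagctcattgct
Gusb, chr5:130003050-130003299, minus strand: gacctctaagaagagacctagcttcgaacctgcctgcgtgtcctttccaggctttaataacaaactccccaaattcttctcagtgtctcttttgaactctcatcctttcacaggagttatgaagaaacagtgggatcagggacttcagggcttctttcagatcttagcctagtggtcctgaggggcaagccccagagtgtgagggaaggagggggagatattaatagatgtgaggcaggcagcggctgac
Lipa, chr19:34527475-34527724, minus strand: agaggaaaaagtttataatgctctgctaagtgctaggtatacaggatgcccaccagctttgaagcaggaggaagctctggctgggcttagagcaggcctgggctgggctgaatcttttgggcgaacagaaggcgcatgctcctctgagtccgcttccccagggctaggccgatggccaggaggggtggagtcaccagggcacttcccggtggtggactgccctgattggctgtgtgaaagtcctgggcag

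The 26-base windows around CACGTG in the other 7 genes are printed to show how the flanking bases differ. Capitals mark CACGTG, each window is read 5′ to 3′ on the gene's strand, and Cln3 holds 2 matches.
Cln3, chr7:126583370-126583395, minus strand: aaccctcaagCACGTGatggaaggct
Cln3, chr7:126583342-126583367, minus strand: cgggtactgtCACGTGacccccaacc
Glb1, chr9:114401020-114401045, plus strand: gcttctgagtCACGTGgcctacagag
Naglu, chr11:101070011-101070036, plus strand: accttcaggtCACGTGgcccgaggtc
Gaa, chr11:119267813-119267838, plus strand: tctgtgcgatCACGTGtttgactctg
Sgsh, chr11:119355524-119355549, minus strand: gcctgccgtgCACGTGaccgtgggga
Lgmn, chr12:102439126-102439151, minus strand: gaatgtctgtCACGTGgtccatttta
Arsa, chr15:89477425-89477450, minus strand: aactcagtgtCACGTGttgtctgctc
Of the 8 genes with a match, Gla, Glb1, Naglu and Cln3 rose over the mean of 4 days, and Gaa, Sgsh, Lgmn and Arsa were not called. Gusb, Lipa, Npc2 and Psap, which have no match in these windows, rose in all 17 alternatives run. A match is a description of these windows, and binding was not measured here.

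All 3 genes of the cofactor group rose. Psap, the precursor of the saposins that present sphingolipids to their hydrolases, stood at 997, 2759, 2531 and 1033 CPM in injured female libraries and 413, 1497, 3691 and 2304 CPM in injured male ones, against 895, 1016, 443 and 465 CPM in non-injured female libraries and 813, 695, 812 and 654 CPM in non-injured male ones. The day 1 male injured library was the lowest of all 16, while the other 7 injured libraries lay above their partners, so the groups overlapped. The log2 change was 1.18 (SE 0.17, adjusted p = 0.00222), between 1.03 and 1.32 when 1 pair was left out.

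Grn, the precursor of the granulins, lysosomal peptides that sustain the activity of several hydrolases, stood at 2397, 9629, 7651 and 773 CPM in injured female libraries and 1676, 3888, 2606 and 2601 CPM in injured male ones, against 2200, 3556, 2131 and 538 CPM in non-injured female libraries and 2261, 709, 927 and 1496 CPM in non-injured male ones. It was higher at the wound in 7 of 8 pairs, the day 1 male pair being the exception, and injured and non-injured libraries overlapped. Its log2 change was 1.03 (SE 0.15, adjusted p = 0.00257), and its exons overlap those of Fam171a2 on the other strand, which counts without strand cannot tell apart. In the GENCODE M21 annotation, 30 of the 31 genes were found, and the exons of 11 overlap another gene on either strand. Overlap was not examined for Gla. Gm2a, the GM2 activator that lifts ganglioside out of the membrane for beta-hexosaminidase, changed by log2 0.65 (SE 0.17, adjusted p = 0.0328). It ranged from 135 to 6900 CPM in injured libraries (median 849) and from 240 to 4613 CPM in non-injured libraries (median 450), with the day 14 female library the highest on both sides. Gm2a was called in 3 of 8 fits that left out a pair (largest adjusted p = 0.15).

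Glycosaminoglycan hydrolases split: 3 of 7 rose (Galns, Gusb, Naglu), 1 fell (Arsb) and 3 were not called (Idua, Sgsh, Ids), with a median log2 change of 0.52. Galns, the sulfatase that removes 6-sulfate from keratan and chondroitin sulfate, stood at 90.2, 202, 202 and 31.1 CPM in injured female libraries and 47.6, 69.7, 104 and 60.8 CPM in injured male ones, against 45.4, 30.2, 19.7 and 7.68 CPM in non-injured female libraries and 37.6, 7.06, 25.4 and 30.2 CPM in non-injured male ones. All 8 injured libraries exceeded their partners. The day 14 female injured library lay below both non-injured libraries of day 1, so the groups overlapped. The log2 change was 1.96 (SE 0.24, adjusted p = 0.00105).

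Gusb, beta-glucuronidase, stood at 1265, 2430, 2197 and 478 CPM in injured female libraries and 704, 882, 1622 and 654 CPM in injured male ones, against 833, 525, 503 and 336 CPM in non-injured female libraries and 482, 199, 463 and 276 CPM in non-injured male ones. It was higher in all 8 pairs, and the groups overlapped. The day 1 female non-injured library exceeded 3 injured ones. The non-injured libraries of day 4 female, day 7 female and day 1 male exceeded the day 14 female injured one. The log2 change was 1.40 (SE 0.15, adjusted p = 0.00057). Naglu, which removes N-acetylglucosamine from heparan sulfate, changed by 0.72 (SE 0.19, adjusted p = 0.034). It ranged from 28.7 to 621 CPM in injured libraries (median 181) and from 27.6 to 277 CPM in non-injured ones (median 150), and it was called in 1 of 8 fits that left out a pair.

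Arsb, the sulfatase of dermatan and chondroitin sulfate, stood at 103, 702, 614 and 141 CPM in injured female libraries and 116, 368, 201 and 263 CPM in injured male ones, against 412, 511, 570 and 291 CPM in non-injured female libraries and 569, 307, 240 and 260 CPM in non-injured male ones. Both day 1 injured libraries lay far below their partners, 4 of 8 pairs were higher at the wound (both of day 4, the day 7 female and the day 14 male pair), and the groups overlapped. The log2 change over the mean of 4 days was -0.59 (SE 0.17, adjusted p = 0.0444), with -2.15 at day 1 and 0.36, -0.07 and -0.51 at days 4, 7 and 14. It was called in 2 of 8 fits that left out a pair.

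Sgsh, which desulfates heparan sulfate, stood at 9.85, 59.9, 103 and 4.44 CPM in injured female libraries and 8.98, 31.8, 44.5 and 60.8 CPM in injured male ones, against 30.9, 38.5, 32.1 and 8.13 CPM in non-injured female libraries and 39.1, 9.58, 7.46 and 18.6 CPM in non-injured male ones. Day 1 injured libraries were lower in both sexes, as was the day 14 female one, and the other 5 were higher. The change was not called (log2 0.50, SE 0.30, adjusted p = 0.336). Idua, alpha-iduronidase (0.52, SE 0.17, adjusted p = 0.0752) and Ids, iduronate sulfatase (-0.20, SE 0.30, adjusted p = 0.774), were not called either. Idua ranged from 29 to 194 CPM in injured libraries (median 79.8) and from 17.1 to 146 CPM in non-injured ones (median 76), and Ids from 9.88 to 38.2 CPM in injured libraries (median 20.4) and from 13.2 to 77.9 CPM in non-injured ones (median 18), higher at the wound in 3 pairs.

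Among the glycoprotein and glycogen hydrolases, 2 of 5 rose: Manba, beta-mannosidase (log2 0.93, SE 0.20, adjusted p = 0.0151) and Fuca1, alpha-fucosidase (0.66, SE 0.15, adjusted p = 0.0202). Aga (0.60, SE 0.22, adjusted p = 0.105), which cuts the bond between asparagine and glycan, and Gaa (0.48, SE 0.18, adjusted p = 0.106), the acid alpha-glucosidase of glycogen, were not called. Manba ranged from 31.3 to 134 CPM in injured libraries (median 50) and from 5.67 to 77.9 CPM in non-injured ones (median 37.3), and Fuca1 from 119 to 671 CPM in injured libraries (median 402) and from 116 to 386 CPM in non-injured ones (median 213). Aga ranged from 36.1 to 136 CPM in injured libraries (median 71.8) and from 14.9 to 148 CPM in non-injured ones (median 46.5), and Gaa from 42.9 to 556 CPM in injured libraries (median 186) and from 37.8 to 275 CPM in non-injured ones (median 162). All 4 had overlapping groups. Manba was called in 4 and Fuca1 in 3 of the 8 fits that left out a pair. Man2b1, alpha-mannosidase, stood at 390, 1928, 2141 and 384 CPM in injured female libraries and 311, 271, 727 and 1107 CPM in injured male ones, against 1337, 2025, 1441 and 309 CPM in non-injured female libraries and 1526, 378, 417 and 671 CPM in non-injured male ones. Injured libraries were lower than their partners at days 1 and 4 in both sexes and higher at days 7 and 14 in both, with overlapping groups. Its mean over days was not called (log2 -0.28, SE 0.14, adjusted p = 0.243).

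In sterol and phospholipid handling, Lipa and Npc2 rose and Npc1 and Pla2g15 were not called. Lipa, acid lipase, which frees cholesterol and fatty acids from lipoprotein esters, stood at 234, 780, 1074 and 272 CPM in injured female libraries and 150, 446, 735 and 338 CPM in injured male ones, against 194, 193, 188 and 68.2 CPM in non-injured female libraries and 137, 25.2, 145 and 109 CPM in non-injured male ones. It was higher in 8 of 8 pairs. The day 1 male injured library, the lowest of its side, lay below 3 non-injured ones, and the other 7 injured libraries exceeded every non-injured one. The log2 change was 1.88 (SE 0.23, adjusted p = 0.00118).

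Npc2, the soluble carrier that hands cholesterol to Npc1, stood at 646, 1252, 1688 and 1493 CPM in injured female libraries and 270, 1213, 2024 and 712 CPM in injured male ones, against 495, 443, 337 and 803 CPM in non-injured female libraries and 280, 223, 739 and 201 CPM in non-injured male ones. It was higher in 7 of 8 pairs, the day 1 male pair differing by under 10 CPM the other way, and the groups overlapped. The log2 change was 1.35 (SE 0.19, adjusted p = 0.00204). Npc1, the membrane transporter of the pair, had a log2 change of 0.44 (SE 0.20, adjusted p = 0.19), and Pla2g15, a lysosomal phospholipase, one of -0.24 (SE 0.17, adjusted p = 0.427). Npc1 ranged from 87.2 to 331 CPM in injured libraries (median 145) and from 65.1 to 222 CPM in non-injured ones (median 114), and Pla2g15 from 135 to 650 CPM in injured libraries (median 259) and from 103 to 879 CPM in non-injured ones (median 426).

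**Figure D4:**
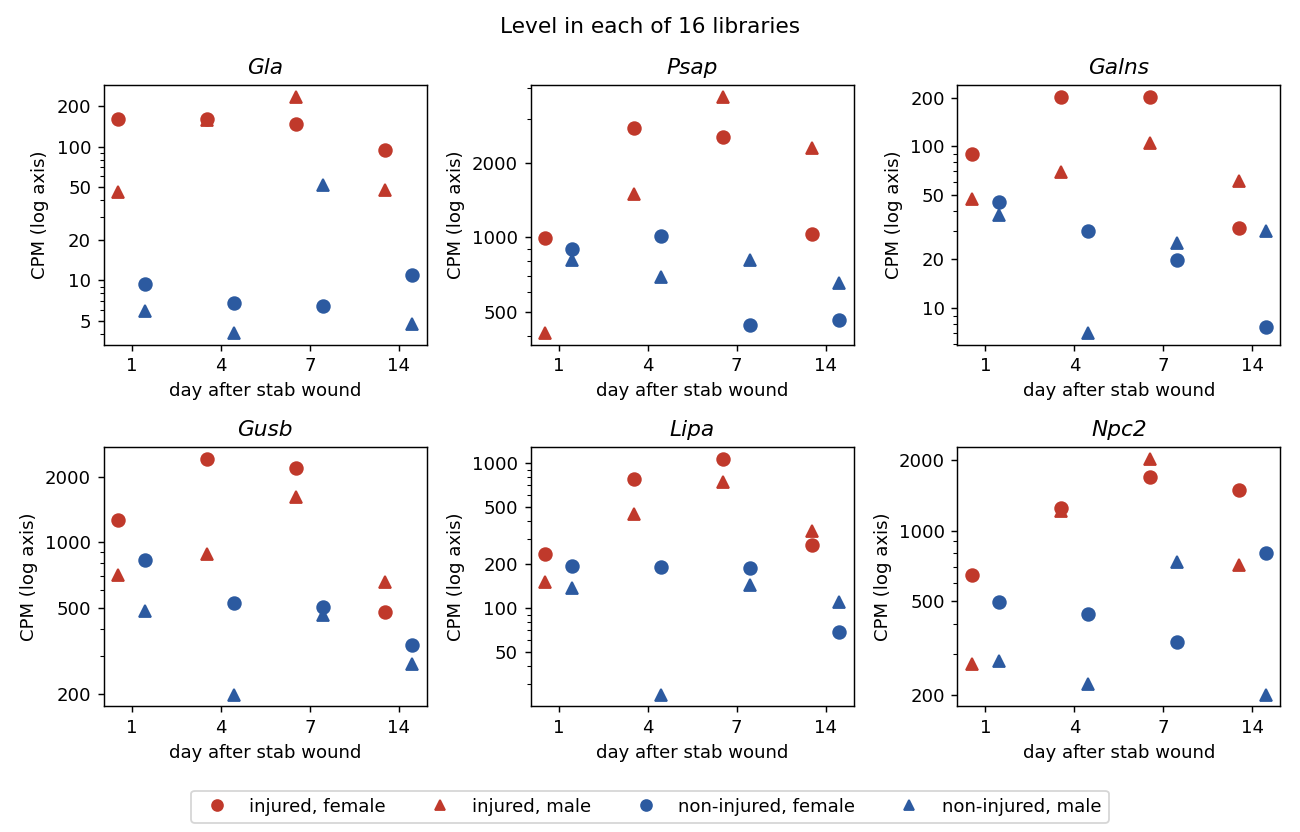
CPM (log axis) of the 6 genes called in every alternative run, by day; circles are female and triangles male libraries, red injured (left) and blue non-injured (right). In the Gla panel both red points lie above both blue points at each day, and the day 7 male non-injured library (52.1 CPM) is the high blue point.

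Of the peptidases, thioesterase and Cln3, 3 of 4 rose: the palmitoyl thioesterase Ppt1 (log2 0.83, SE 0.18, adjusted p = 0.0141), the membrane protein Cln3 (0.79, SE 0.22, adjusted p = 0.0381) and the tripeptidyl peptidase Tpp1 (0.65, SE 0.18, adjusted p = 0.0367). Ppt1 ranged from 283 to 940 CPM in injured libraries (median 773) and from 161 to 779 CPM in non-injured ones (median 381), Tpp1 from 328 to 1362 CPM in injured libraries (median 545) and from 135 to 762 CPM in non-injured ones (median 409) and Cln3 from 53 to 218 CPM in injured libraries (median 90) and from 20.2 to 113 CPM in non-injured ones (median 71.7). Each of the 3 had overlapping groups and was called in 4 or fewer of the 8 fits that left out a pair. Lgmn, the asparaginyl endopeptidase legumain, was the most abundant of the 31 per length, with a mean of 5500 transcripts per 1000000 (TPM) in injured libraries and 7159 TPM in non-injured ones. In CPM, Lgmn stood at 13110, 13020, 10850 and 11050 CPM in injured female libraries and 4506, 6964, 13440 and 4085 CPM in injured male ones, against 13670, 8888, 6305 and 13950 CPM in non-injured female libraries and 6246, 1823, 10210 and 4110 CPM in non-injured male ones. It was higher in 4 of 8 pairs, the groups overlapped, and its log2 change was not called (0.35, SE 0.16, adjusted p = 0.192).

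TPM carry no TMM scaling. By TPM, the order after Lgmn was Grn (mean 2016 TPM in injured and 1484 TPM in non-injured libraries), Hexa (853.4 and 722.2 TPM), Psap (798.6 and 464.6 TPM) and Man2b1 (310.5 and 578.3 TPM). These neighbours have ranges over libraries that overlap. At the low end stood Sgsh (14.1 and 10.7 TPM), Galc (11.7 and 6.84 TPM) and Ids (5.43 and 8.34 TPM). Lgmn held a median of 42.9% of the summed TPM of the 31 genes in injured libraries and 45.8% in non-injured ones, so this 1 gene weighs heavily in any sum over the set. The summed TPM of the 31 genes made up 0.814% to 1.92% of all TPM in injured libraries and 0.234% to 1.93% in non-injured libraries, and the groups overlapped.

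Fitted injury effects were lowest at day 1 for most of these genes, although no gene's day-dependence passed the test. The median fitted log2 change of the 31 genes was -0.26, 1.24, 1.17 and 0.66 at days 1, 4, 7 and 14, beside medians of -0.05, -0.20, -0.84 and 0.00 over all genes tested. Over the 5760 protein-coding genes at or above the lowest mean CPM of the 31, the medians were 0.07, 0.37, 0.64 and 0.06. That background was thus also higher at days 4 and 7 than at day 1. Of the 5760, 1.56%, 5.1%, 0.92% and 0.139% rose at the 4 days and 1.89%, 0.712%, 0.0868% and 0.0174% fell. At day 1, 1 gene rose (Gla, log2 3.54, SE 0.61, adjusted p = 0.0361; 0.472% of genes tested rose) and 2 fell (Arsb, -2.15, SE 0.35, adjusted p = 0.0314, and Man2b1, -2.04, SE 0.30, adjusted p = 0.0214; 0.58% fell). Dropping any 1 of the day 1, day 7 or day 14 pairs left 0 rises at day 1. The falls of Arsb and Man2b1 were both lost when a day 1 or a day 7 pair was dropped, and that of Man2b1 also with the day 14 female pair. Over all genes, 0 rose and 0 fell at day 1 without either day 1 pair. Without the day 7 female pair 30 rose and 18 fell, and without the day 7 male pair 29 and 17. Without the day 14 female pair 81 rose and 106 fell, and without the day 14 male pair 126 and 163.

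At day 4, 6 of 31 rose and 0 fell, where 1.52% of genes tested rose and 0.521% fell. These were Gla (log2 4.90, SE 0.65), Lipa (3.05, SE 0.50), Galns (3.0, SE 0.49), Gusb (2.18, SE 0.30), Npc2 (1.97, SE 0.39) and Grn (1.95, SE 0.32), with adjusted p between 0.0164 and 0.0406 in edgeR. The count was 0 without the day 1 female or day 1 male pair, 2 without the day 7 female or day 7 male pair, and 12 in DESeq2. Without the day 14 female pair Galns, Gla, Gusb and Lipa were called, and without the day 14 male pair Grn as well. Over all genes, 0 rose at day 4 without either day 1 pair, and 144 or 139 without the day 7 female or male pair. Without the day 14 female or male pair 324 or 414 rose, and 1003 rose in DESeq2. Without the day 4 male pair, day 4 rested on the female pair alone, with log2 ratios of 1.44 (Grn) to 4.39 (Gla) for the 6 genes.

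At day 7, Psap (log2 2.35, SE 0.35, adjusted p = 0.0403), Gusb (1.97, SE 0.30, adjusted p = 0.041) and Hexa (1.69, SE 0.27, adjusted p = 0.0471) rose and 0 fell, where 0.318% of genes tested rose and 0.0559% fell. The count was 0 without either day 1, either day 7 or either day 14 pair, 9 when the day 4 female pair was dropped, 10 when that of the day 4 males was, 1 without the day 4 and day 7 male pairs together and 11 in DESeq2. Over all genes, 0 rose at day 7 without a day 1 or day 7 pair, and 16 or 64 without the day 14 female or male pair. Without the day 4 female or male pair 231 or 541 rose. The count was 89 without the day 4 and day 7 male pairs together and 801 in DESeq2. At day 14, 0 of 31 were called in edgeR, where 0.0455% of genes tested rose and 0.014% fell. An unadjusted p under 0.05 was reached by 15 of 31, 14 higher and 1 lower, beside 16.5% of all genes tested. The count of rises at day 14 was 2 without the day 4 female or the day 4 male pair, 1 without the day 4 and day 7 male pairs together, 1 in limma on log2(TPM + 1) and 8 in DESeq2. Over all genes, these settings gave 97 and 110 without the day 4 female and male pairs and 102 without both male pairs. Limma gave 84 and DESeq2 1027. In the authors' deposited tables, at the same threshold of adjusted p, 1, 9, 8 and 8 of the 31 were higher at days 1, 4, 7 and 14, and 3, 1, 0 and 0 were lower. Of all 55385 genes listed in the authors' deposited tables, 2.88%, 2.42%, 1.97% and 3.34% were higher at those days and 3.27%, 4.26%, 6.44% and 3.67% were lower.

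**Figure D5:**
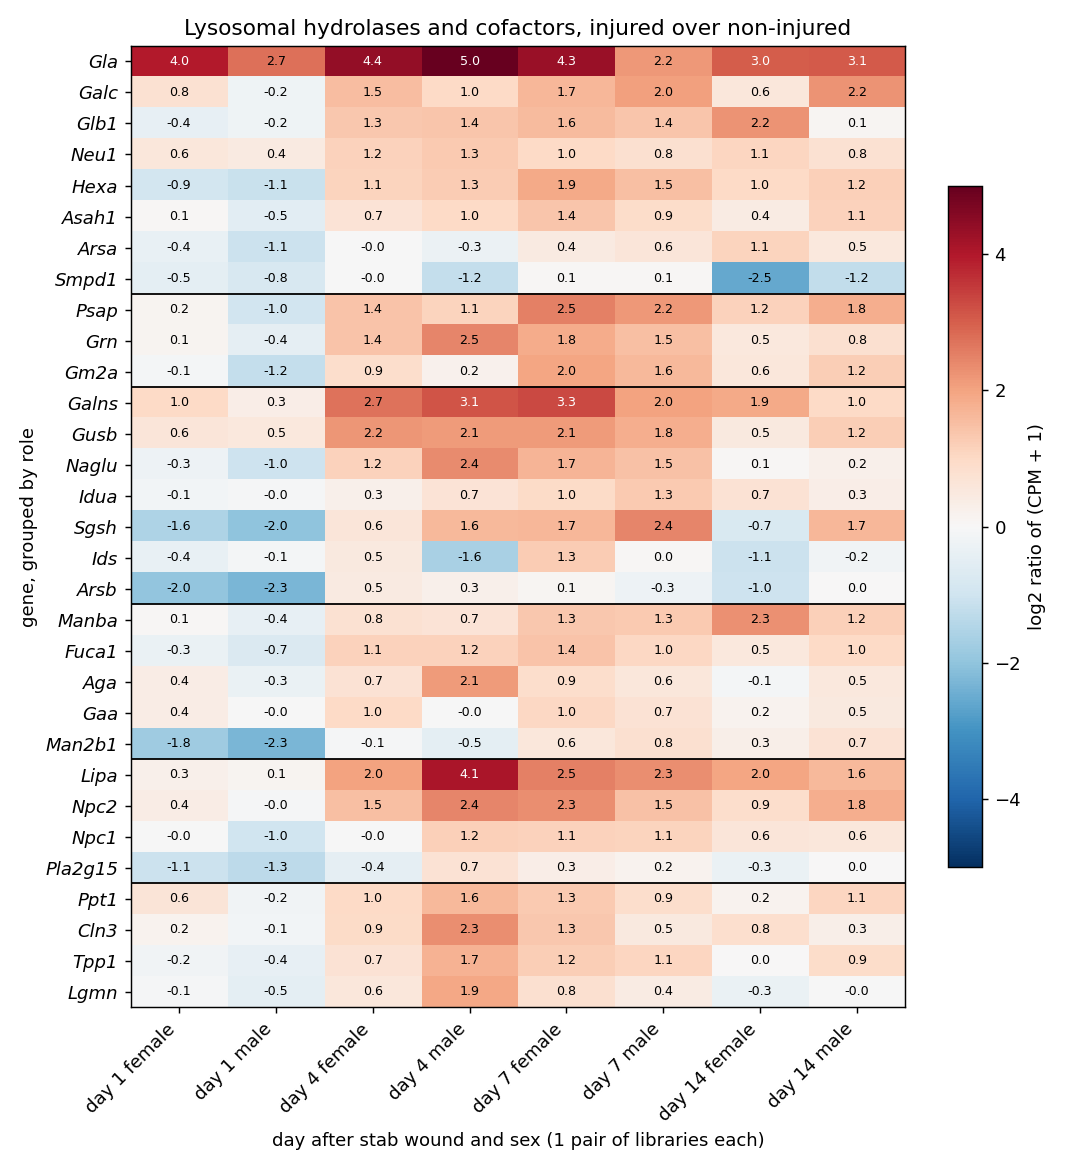
Log2 ratio of (CPM + 1), injured over non-injured, in each of 8 day-by-sex pairs (columns) for the 31 genes (rows, grouped by role). At day 1 the ratio is above 0 for 15 genes in females and 5 in males, at day 7 for 31 in females and 30 in males, and Smpd1 is lowest in the day 14 female pair (-2.55).

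By pair, the number of the 31 genes higher at the wound was 15 and 5 at day 1, 26 and 26 at day 4, 31 and 30 at day 7, and 24 and 28 at day 14 (female and male). Across all genes tested, 33.7% and 43.9% were higher in the day 1 pairs and 41.5% and 47.9% in the day 4 pairs. The shares were 38.1% and 36.2% in the day 7 pairs and 27.2% and 49.1% in the day 14 pairs. Day 1 held the lowest mean ratio of the 4 days for 28 of 31 genes, while the highest fell at day 4 for 14, day 7 for 15 and day 14 for 2. In both sexes at once, 5 genes were higher and 16 lower at day 1, and 30 were higher and 0 lower at day 7. The counts by day of lowest or highest ratio and those in both sexes at once were not made over all genes.

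The F test of day-dependence called 0 of 31 genes and 0 of 28597 in edgeR (smallest adjusted p = 0.675). At an unadjusted p under 0.05 it held 16 of 31 genes, beside 6.36% of all genes tested. DESeq2 called 4 of the 31 and 225 of all genes. The smallest unadjusted p-values belonged to Hexa (0.000196), Man2b1 (0.000301) and Psap (0.00184). Hexa had fitted log2 changes of -1.02, 1.20, 1.69 and 1.08 at days 1, 4, 7 and 14, Man2b1 of -2.04, -0.27, 0.69 and 0.52, and Psap of -0.41, 1.27, 2.35 and 1.49. The effect at day 14 minus that at day 1 was also called for 0 of 31 genes and 0 of all genes tested (unadjusted: 11 of 31, beside 9.41% of all genes), and for 4 of 31 genes and 539 of all genes in DESeq2. It was 2.10 for Hexa (SE 0.37) and 2.56 for Man2b1 (SE 0.41), adjusted p = 0.406 for both.

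Females and males were compared by 1 term for the difference in their mean injury effect. It was called for 0 of 31 genes and 0 of all genes tested in edgeR (0 of 31 at an unadjusted p under 0.05, beside 7.32% of all genes; 0 of 31 in DESeq2). The smallest p-values belonged to Sgsh (female minus male log2 -0.97, SE 0.50, adjusted p = 0.742), Galns (0.62, SE 0.41, adjusted p = 0.845) and Gla (0.71, SE 0.51, adjusted p = 0.874). The female ratio exceeded the male one in 28, 11, 25 and 9 of 31 genes at days 1, 4, 7 and 14, so its direction changed between days. This was not tested, since a single day has 1 pair of each sex, and was not counted over all genes.

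Other genes of the lysosome were described by 4 lists. Of 12 cathepsins, 8 rose and 1 fell over the mean of 4 days. Ctsb (log2 2.48, SE 0.19, adjusted p = 0.000172), Ctsz (1.45, SE 0.15, adjusted p = 0.00057) and Ctsc (1.42, SE 0.16, adjusted p = 0.000748) had the smallest p. The 1 that fell was Ctsf (log2 -1.11, SE 0.17, adjusted p = 0.00329), named after its value was seen. Of 30 membrane and proton pump genes, 19 rose and 1 fell, led by the tetraspanin Cd63 (2.72, SE 0.17), the pump subunit Atp6v0d2 (5.47, SE 0.64) and the pump subunit Atp6v1g1 (1.38, SE 0.20), with adjusted p of at most 0.00209. The 1 that fell was the channel Tpcn1 (-0.96, SE 0.22, adjusted p = 0.017), named after its value was seen.

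Delivery, maturation and transcription genes rose in 13 of 26 cases and fell in 1. Igf2r (3.78, SE 0.39) and M6pr (1.15, SE 0.18), the mannose 6-phosphate receptors that carry hydrolases to the lysosome, and the retromer subunit Vps29 (1.24, SE 0.18) had the smallest p, with adjusted p between 0.000534 and 0.00309. The 1 that fell was the sorting receptor Sort1 (-0.82, SE 0.22, adjusted p = 0.0348), named after its value was seen. Of 20 other soluble lysosomal enzymes, 5 rose and 0 fell, led by the tartrate-resistant phosphatase Acp5 (5.42, SE 0.63), the carboxypeptidase Scpep1 (1.64, SE 0.21) and the dipeptidyl peptidase Dpp7 (1.73, SE 0.23), with adjusted p between 0.000665 and 0.00147.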

How the data were processed

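Microglial RNA was reverse transcribed with the SMART-Seq v4 chemistry and made into libraries with Nextera XT, per the labels' protocols, a chemistry that marks no strand. The authors deposited estimated counts and TPM (transcripts per 1000000) per gene. Salmon 1.0.0 is listed with DESeq2 1.26.0 in the submitters' processing notes, which do not say what step either did. The genome build, the annotation and the tools' options were not given in the sources used here. Tables were also deposited by the authors, holding log2 fold changes and adjusted p-values, 1 table for each day, and these were used to find the members' symbols and for the counts credited to them. Estimated counts were rounded to whole numbers, the 2 columns of each day, sex and side were summed, and 16 libraries were analysed. All 32 columns were matched to samples, and 0 were unmatched.

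Tests on counts used edgeR 4.0.16 in R 4.3.3 (quasi-likelihood F tests, TMM factors, a minimum count of 10 in edgeR's expression filter, Benjamini-Hochberg adjustment over 28597 genes, calls under 0.05). The model held 8 pair means and 1 injury effect per day, with 4 residual degrees of freedom. Contrasts were the mean of the 4 days, each day, any difference between days, and day 14 minus day 1, while a separate fit added 1 sex term. Log2 changes are injured minus non-injured, and pair ratios use CPM + 1. Alternatives were DESeq2 1.42.0, limma 3.58.1 on log2(TPM + 1), other scalings, no filter, no pair terms, the separate columns and leaving out each pair. Tables and figures were made in Python 3.11.15.

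Values in every library are given for the 8 genes with the smallest p over the mean of 4 days, the 3 with the highest mean TPM, the 3 with the smallest p for day-dependence, the 3 with the smallest p for the sex term and the called gene that was lower. Other genes of the lysosome are named by the 3 smallest p-values of their list. The members, lists and tests were chosen with earlier results of these data known. Depth was 20863982 to 55378788 counts per library.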

Additional observations from a re-analysis of the deposited data

Results flagged for a closer look

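Of 93 sets of 8 libraries examined for a single value far from the others, 3 held one, and chance gives about 1 in 20 sets. Gla on the non-injured side was 5.73 on the log2(CPM + 1) scale in the day 7 male library, with the next highest library at 3.58. Smpd1 on the injured side was 2.1 in the day 14 female library, with the next lowest library at 4.72. Gm2a on the non-injured side was 12.2 in the day 14 female library, with the next highest library at 9.67. The mean non-injured level of Gla was 12.5 CPM with the day 7 male library and 6.89 CPM without it.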

How the results depend on the processing

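The calls rest on 8 pairs with 4 residual degrees of freedom. The lowest count was 4, for Arsa in the day 14 female non-injured library. That library held 33306008 counts in total, and the part of depth in the low value was not tested. The day 14 male non-injured library held 21874355 counts in total and 789 for Arsa. The day 14 female pair had the fewest genes detected, 14737 in the injured and 14777 in the non-injured library. The outlying values of Smpd1 and Gm2a also fell in this pair. Whether low gene detection led to these values was not tested. Over the mean of 4 days, 19 genes were called higher and 1 lower. When 1 pair at a time was left out, the higher count ranged from 8 to 20 and the lower count from 0 to 2, the day 1 count from 0 to 1, the day 4 count from 0 to 9, the day 7 count from 0 to 10 and the day 14 count from 0 to 2. With median-ratio factors 2 were lower over the mean of 4 days and 1 was higher at day 7 (over all genes, 2824 and 51). With library size only, 8 were higher and 3 lower over the mean of 4 days, 3 higher at day 4 and 1 at day 7 (over all genes, 1294, 3978, 271 and 54). Without the filter on low counts, 0 were lower over the mean, 0 higher at day 1 and 0 at day 7 (of 47869 genes, 1549, 55 and 14). DESeq2 gave 3 lower over the mean, 12, 11 and 8 higher at days 4, 7 and 14, 4 with day-dependence and 4 with a larger effect at day 14 than at day 1. Over all 28597 genes, DESeq2 gave 3760 lower over the mean and 1003, 801 and 1027 higher at days 4, 7 and 14. With limma on log2(TPM + 1), 6 were higher and 4 lower over the mean, with 3, 0 and 1 higher at days 4, 7 and 14. Over all genes, limma gave 1092 higher and 3279 lower, with 245, 41 and 84 higher at those days. Without pair terms, 6 were higher and 0 lower over the mean, and 0 higher at days 1, 4 and 7. Over all genes, 849 were then higher and 1248 lower, with 11, 19 and 0 higher at those days. Without the day 4 and day 7 male pairs, 10 were higher and 0 lower over the mean, with 1 higher at each of days 4, 7 and 14. The older edgeR quasi-likelihood estimate, chosen after seeing the data, gave 2 lower over the mean, 13 and 4 higher at days 7 and 14, 7 with day-dependence and 1 with a larger effect at day 14 than at day 1. Over all genes it gave 2198 lower over the mean and 908 and 508 higher at days 7 and 14. It called day-dependence for 343 genes and a difference between days 14 and 1 for 264. The causes were not tested. All 20 called genes kept their direction in all 17 alternatives, which reuse the same libraries. This was not counted over all genes.

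The deviations of same-numbered columns correlated at -0.00966 to 0.0617. Columns that differ by little more than counting noise can give values near 0 either way. Whether the replicate numbers pair the samples therefore cannot be told from these values. With the 32 columns kept apart and the replicate number as a block, 23 genes were higher and 4 lower over the mean of 4 days, 3, 22, 23 and 19 higher at days 1, 4, 7 and 14, 29 with day-dependence, 17 with a larger effect at day 14 than at day 1 (18 with a difference in either direction) and 2 with a sex difference, since columns of 1 library are then counted as separate samples. Of all 22980 genes tested in that fit, 4599 were higher and 7840 lower over the mean of 4 days. At days 1, 4, 7 and 14, 3475, 3483, 3705 and 3829 were higher. Day-dependence was called for 9167 genes, a difference between days 14 and 1 for 5357 and a sex difference for 5196.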
